A study of Homo sapiens with 15 samples.

Results

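The 60 genes described here encode proteins that carry cells through G2 and mitosis, and their transcripts were measured in the human myeloma line MM.1S. The genes were taken by symbol as a named set, in 11 roles from the transcription factors of the set to cytokinesis. They were not picked by their values, but earlier results of these data were known when they were chosen. All 60 were found among the 47459 gene rows of the table, and all 60 were among the 16104 genes tested. Cells were treated for 6 h with dCBP-1, with the combination of A-485 and GNE-781, with GNE-781, with A-485 or with DMSO, the vehicle, each compound at 100 nM. There were 3 libraries a group. A-485 blocks the acetyltransferase activity of the coactivators CBP and p300, and GNE-781 blocks their bromodomains, which bind acetylated lysine. dCBP-1 links a bromodomain ligand related to GNE-781 to a ligand of the ubiquitin ligase receptor cereblon, and was made to have both coactivators degraded. No group received a cereblon ligand alone, CBP and p300 proteins were not measured, and the whole study rests on a single cell line at a single time and dose. Nothing in the labels tells whether a replicate is its own culture, so p-values cover no more than the spread among these libraries, which may be technical.

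Mitotic genes are transcribed in a wave that begins late in S phase and peaks in G2 and M. In background terms, the MuvB complex binds a promoter element called the CHR, and with the transcription factors B-MYB (MYBL2) and FOXM1 it switches these genes on, while with pocket proteins and E2F factors it keeps them off in resting cells. NF-Y, which binds CCAAT boxes, is a frequent partner at the same promoters. Because the transcripts follow the cell cycle, a bulk level depends both on how many cells are in G2 and M and on how much of each transcript such a cell holds. The libraries cannot tell these apart.

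The promoters of 5 members are shown as examples, which do not stand for all members that rose or fell. CCNB2, SPC25 and NDC80 were among the 10 largest rises with dCBP-1, and MYBL2 and CKAP2 were the 2 largest falls. Each line is 300 bases of RefSeq sequence on GRCh38.p14, from 250 bases before the annotated start of transcription to 50 after it, read 5′ to 3′ on the gene's strand. Capitals mark CHR letters (TTTGAA or TTTAAA) and CCAAT boxes, on either strand, so that TTCAAA and ATTGG are marked too, and overlapping matches were kept.
CCNB2 (chr15:59104896-59105195, plus strand): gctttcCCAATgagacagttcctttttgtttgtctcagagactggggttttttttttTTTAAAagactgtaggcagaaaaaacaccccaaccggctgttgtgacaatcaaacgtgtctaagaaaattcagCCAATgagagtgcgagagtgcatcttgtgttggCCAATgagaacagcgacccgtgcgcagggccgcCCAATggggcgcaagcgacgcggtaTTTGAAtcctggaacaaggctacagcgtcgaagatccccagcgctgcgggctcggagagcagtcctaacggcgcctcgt
SPC25 (chr2:168890381-168890680, minus strand): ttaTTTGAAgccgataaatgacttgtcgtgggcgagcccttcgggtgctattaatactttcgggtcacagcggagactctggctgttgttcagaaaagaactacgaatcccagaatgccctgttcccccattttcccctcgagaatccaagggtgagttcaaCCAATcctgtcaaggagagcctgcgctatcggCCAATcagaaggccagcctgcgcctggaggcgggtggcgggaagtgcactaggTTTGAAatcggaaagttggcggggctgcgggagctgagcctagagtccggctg
NDC80 (chr18:2571307-2571606, plus strand): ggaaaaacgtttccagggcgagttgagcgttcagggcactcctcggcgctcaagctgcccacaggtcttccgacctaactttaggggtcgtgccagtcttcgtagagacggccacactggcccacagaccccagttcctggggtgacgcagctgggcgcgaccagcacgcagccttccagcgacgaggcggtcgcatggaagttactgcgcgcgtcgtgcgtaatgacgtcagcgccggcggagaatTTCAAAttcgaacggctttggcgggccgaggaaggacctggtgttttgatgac
MYBL2 (chr20:43666864-43667163, plus strand): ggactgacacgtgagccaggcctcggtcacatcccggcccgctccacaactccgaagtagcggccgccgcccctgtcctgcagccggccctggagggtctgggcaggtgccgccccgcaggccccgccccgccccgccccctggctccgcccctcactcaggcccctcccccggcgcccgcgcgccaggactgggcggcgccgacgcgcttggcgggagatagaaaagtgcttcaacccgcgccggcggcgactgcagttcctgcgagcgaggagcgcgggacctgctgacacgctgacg
CKAP2 (chr13:52455738-52456037, plus strand): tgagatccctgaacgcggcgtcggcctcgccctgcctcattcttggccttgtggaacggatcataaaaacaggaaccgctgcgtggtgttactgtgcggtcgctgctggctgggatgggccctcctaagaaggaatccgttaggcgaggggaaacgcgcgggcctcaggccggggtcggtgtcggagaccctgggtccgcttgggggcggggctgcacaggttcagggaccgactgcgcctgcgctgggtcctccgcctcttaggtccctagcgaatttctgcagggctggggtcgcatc

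CCNB2 held CHR letters at −193 and −29, counted from the start, and CCAAT boxes at −244, −120, −87 and −54. SPC25 held CHR letters at −247 and −3 and CCAAT boxes at −88 and −56. NDC80 held CHR letters at −3 and no CCAAT box. No match was found in these windows of MYBL2 and CKAP2, whereas those of the other members that fell held CCAAT boxes at −79 and −54 (BUB1), CHR letters at −23 (BUB1B), and CHR letters at −28 with a CCAAT box at −53 (KIF11). Promoters were listed for 52 of the 60 genes, at 67 starts. CHR letters stood in a promoter of 43 of them (82.7%), against 27.9% of 27305 genes, and a CCAAT box in 41 (78.8%), against 39.7% of all. Both motifs together stood in 34 of the 52 (65.4%), against 12.7% of all. Of the members that rose with dCBP-1, CHR letters stood in 28 of 32, of those not called in 13 of 15, and of those that fell in 2 of 5. Members that rose and members that were not called thus held these letters about as often. A match is a description of the letters and not a bound site.

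Depth ran from 13.1 to 18.08 M reads in dCBP-1 libraries, from 14.66 to 18.29 M in combination libraries, from 13.16 to 17.21 M with GNE-781, from 16.37 to 17.58 M with A-485 and from 14.99 to 17.31 M with DMSO. The member with the fewest reads in any library was UBE2S, with 65, so counting error was small for nearly all members. The plasma cell markers fixed for the line (SDC1, TNFRSF17, IRF4, PRDM1, XBP1, CD38, MZB1, SLAMF7 and JCHAIN) were all detected, and together held 25724.5 to 27244 normalized read counts with dCBP-1, 34819 to 43958 with the combination, 38517 to 42981 with GNE-781, 49611 to 62907 with A-485 and 65604 to 68956 with DMSO. Those of other blood and stromal cells together held 58.2 to 328 a library for mature B cells, 10.7 to 62.2 for T cells, 42.7 to 102 for myeloid cells and 1.03 to 22.6 for fibroblasts, with CD3D and CSF1R at 0 in every library. The mitochondrial share of reads and the number of genes detected set DMSO replicates 1 and 2 aside from the rest. Mitochondrially encoded genes took 14.1% to 16.7% of reads in treated libraries, against 22.8%, 19.4% and 16.1% in DMSO replicates 1, 2 and 3. At an equal depth of 13.1 M reads, 18753 to 20564 genes were detected in treated libraries, against 16292, 17372 and 19648 in the DMSO replicates. For this reason every comparison of a treatment with DMSO below is also given with DMSO replicate 3 as the only control. Replicates were also compared within groups, by a chi-square of reads per degree of freedom. It ran from 5.61 for dCBP-1 replicates 1 and 2 to 46.5 for DMSO replicates 1 and 3. dCBP-1 replicate 3, the library with the fewest reads (13.1 M), had 28.0 and 24.5 against dCBP-1 replicates 1 and 2. Combination replicate 3 had 22.9 and 21.5 against combination replicates 1 and 2, which had 9.60 between them.

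With dCBP-1, most mitotic genes were higher than with DMSO, while MYBL2, the checkpoint genes BUB1 and BUB1B and the spindle gene CKAP2 were lower. NDC80, SPC24 and SPC25, which are 3 of the 4 subunits of the NDC80 kinetochore complex, had the largest rises. Each of these 3 genes was highest in dCBP-1 replicate 3. Values are normalized read counts, tested as log2(value + 1) with limma over all genes tested and called at a Benjamini-Hochberg adjusted p below 0.05; "rose" and "fell" are used of called genes. Errors after ± are SD beside levels and SE beside log2 fold changes. Of the 60 genes 36 rose and 5 fell, where 19.3% of all genes tested rose and 18.5% fell. The median log2 fold change of the 60 was 0.44, against 0.07 over all genes tested, and 50 of 60 values were above 0, against 53.6% of all. In 37 genes all 3 dCBP-1 libraries lay above all 3 DMSO libraries, and in 7 they lay below, where 21.8% and 22.5% of all genes tested did so. Rises were moderate: the largest was 1.35 ± 0.17 for NDC80, and the largest fall −1.08 ± 0.13 for MYBL2. With each of the 6 libraries left out in turn, 23 of the 36 rises and 4 of the 5 falls kept their call in all 6 fits. The count was 39, 35 higher and 4 lower, with the replicate number as a block. Here and below, a count under another setting that stands without a share of all genes does not compare members with all genes.

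**Figure D1:**
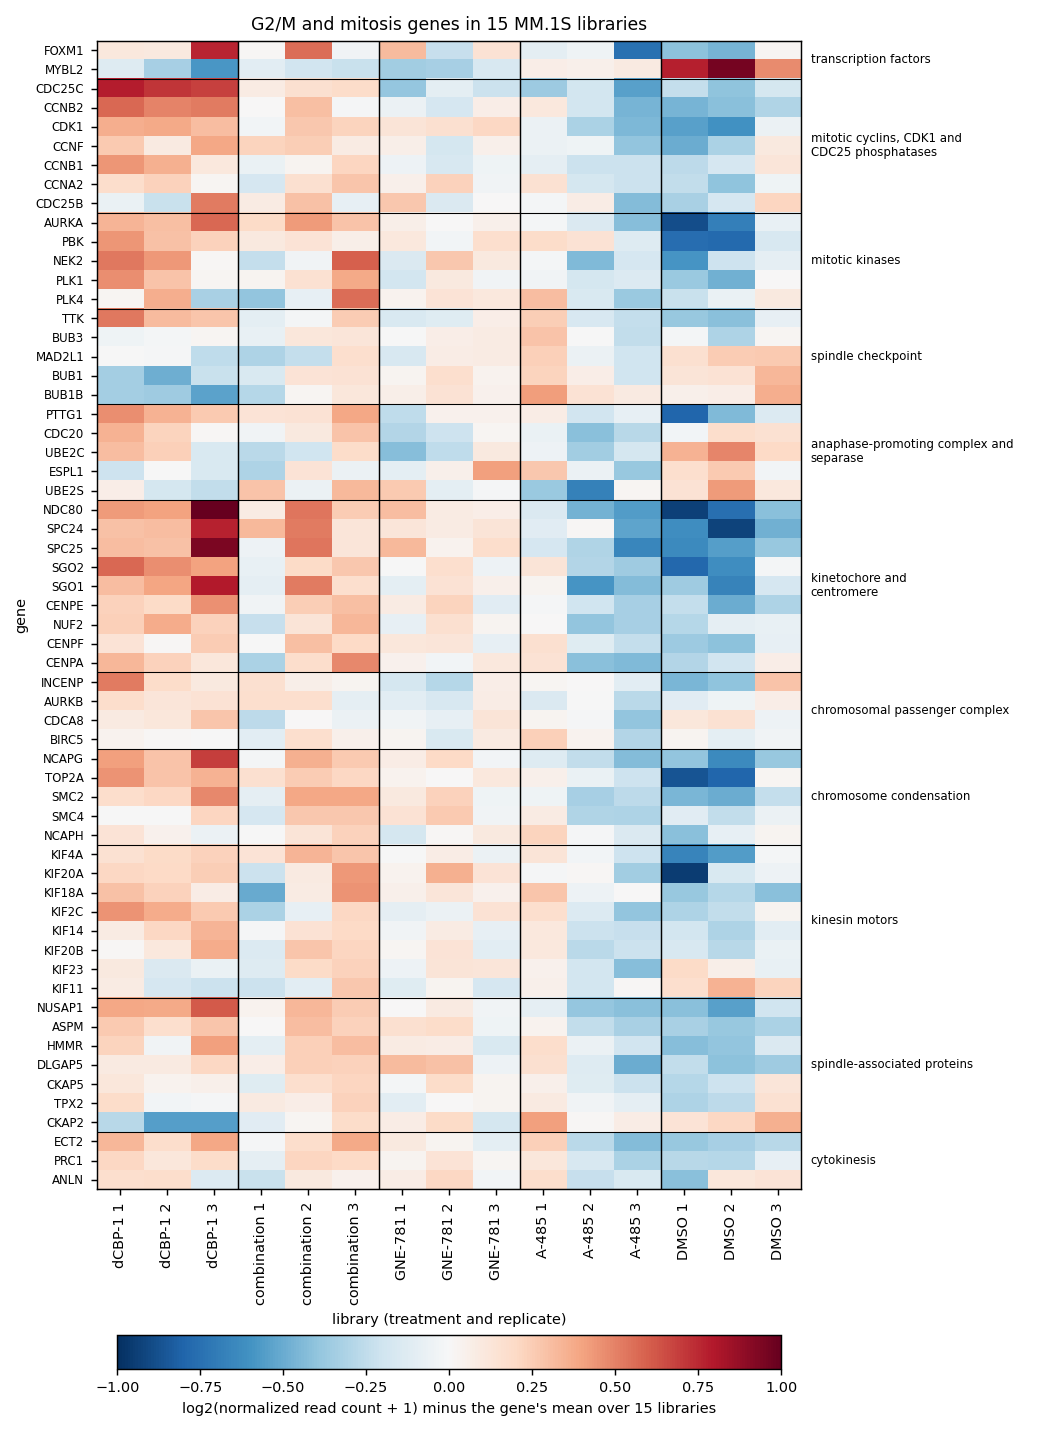
Heat map of the 60 genes (rows, grouped by role and within a role by fold change with dCBP-1) in 15 libraries (columns, by treatment and replicate); colour is log2(normalized read count + 1) minus the gene's mean over the libraries, cut at −1 and 1. The dCBP-1 columns are red in most rows and the DMSO columns blue, with MYBL2, BUB1, BUB1B and CKAP2 the other way round and DMSO replicate 3 paler than replicates 1 and 2.

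The kinetochore, where microtubules attach to chromosomes, had 8 of 9 members higher with dCBP-1. NDC80, which forms the microtubule-binding end of the 4-protein NDC80 complex, had 1247, 1226 and 2012 normalized read counts with dCBP-1, 983, 1346 and 1108 with the combination, 1149, 984 and 968 with GNE-781, 837, 669 and 629 with A-485, against 484, 548 and 694 with DMSO. All dCBP-1 libraries lay above all others but 1 of the combination, and replicate 3 was the highest. The log2 fold change over DMSO was 1.35 ± 0.17 (adjusted p = 2.8e-07, limma). SPC24 and SPC25 form the other end of that complex, which docks on the inner kinetochore. SPC24 had 696, 703 and 969.9 normalized read counts with dCBP-1, 710.3, 817 and 618 with the combination, 619, 601 and 621 with GNE-781, 525, 572 and 395 with A-485, against 370.0, 299.5 and 407 with DMSO. SPC25 had 943, 937 and 1468 normalized read counts with dCBP-1, 738, 1106 and 828 with the combination, 956, 782 and 861 with GNE-781, 679, 618 and 484.7 with A-485, against 490.1, 519.9 and 586 with DMSO. Both were higher in every dCBP-1 library than in any DMSO library, by 1.13 ± 0.16 for SPC24 (adjusted p = 2.7e-06, limma) and 1.04 ± 0.17 for SPC25 (adjusted p = 1.7e-05, limma). For both, dCBP-1 replicate 3 was again the highest library. With a dCBP-1 or DMSO library left out, the lowest log2 fold changes were 1.12 for NDC80, 0.97 for SPC24 and 0.82 for SPC25. All 3 genes kept their calls in those fits. NUF2, the direct partner of NDC80, rose less, with 2259.6 ± 126 normalized read counts with dCBP-1 and 1679 ± 136 with DMSO (mean ± SD, n = 3 each), which is a log2 difference of 0.43 ± 0.14 (adjusted p = 0.016, limma). That call ended without dCBP-1 replicate 2 or DMSO replicate 1. The counting strand is not stated, so reads of a member and of a gene that overlaps its exons on the opposite strand cannot be told apart.

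SGO1 and SGO2 encode shugoshins, which protect centromeric cohesion. SGO2 had 2458, 2282 and 2178 normalized read counts with dCBP-1, 1570.3, 1884 and 1992 with the combination, 1646, 1857 and 1597 with GNE-781, 1805, 1348 and 1289.7 with A-485, against 957, 1076 and 1629 with DMSO. DMSO replicate 3 was 1629, well above DMSO replicates 1 and 2, and the log2 fold change was 0.95 ± 0.16 (adjusted p = 2e-05, limma). SGO1 had 614, 651 and 855 normalized read counts with dCBP-1, 464, 711 and 555 with the combination, 463, 546 and 511 with GNE-781, 503, 329 and 365 with A-485, against 386, 310.0 and 439 with DMSO. dCBP-1 replicate 3 was the highest library for it, and the log2 fold change was 0.90 ± 0.18 (adjusted p = 0.0002, limma). CENPE, a kinesin of the kinetochore, had 2634, 2565 and 3074 normalized read counts with dCBP-1, 2184, 2663 and 2766 with the combination, 2368, 2614 and 2076 with GNE-781, 2218, 1952 and 1784 with A-485, against 1895, 1591 and 1809 with DMSO. Its dCBP-1 libraries lay above all DMSO libraries, with a log2 fold change of 0.64 ± 0.13 (adjusted p = 0.00031, limma). CENPF, a large protein of the outer kinetochore, rose by 0.42 ± 0.14, a call that ended without dCBP-1 replicate 3, DMSO replicate 1 or DMSO replicate 2. CENPA, the centromeric histone, was not called (0.36 ± 0.19, 95% interval −0.02 to 0.75), and its exons overlap those of SLC35F6 on the same strand, which had more reads.

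**Figure D2:**
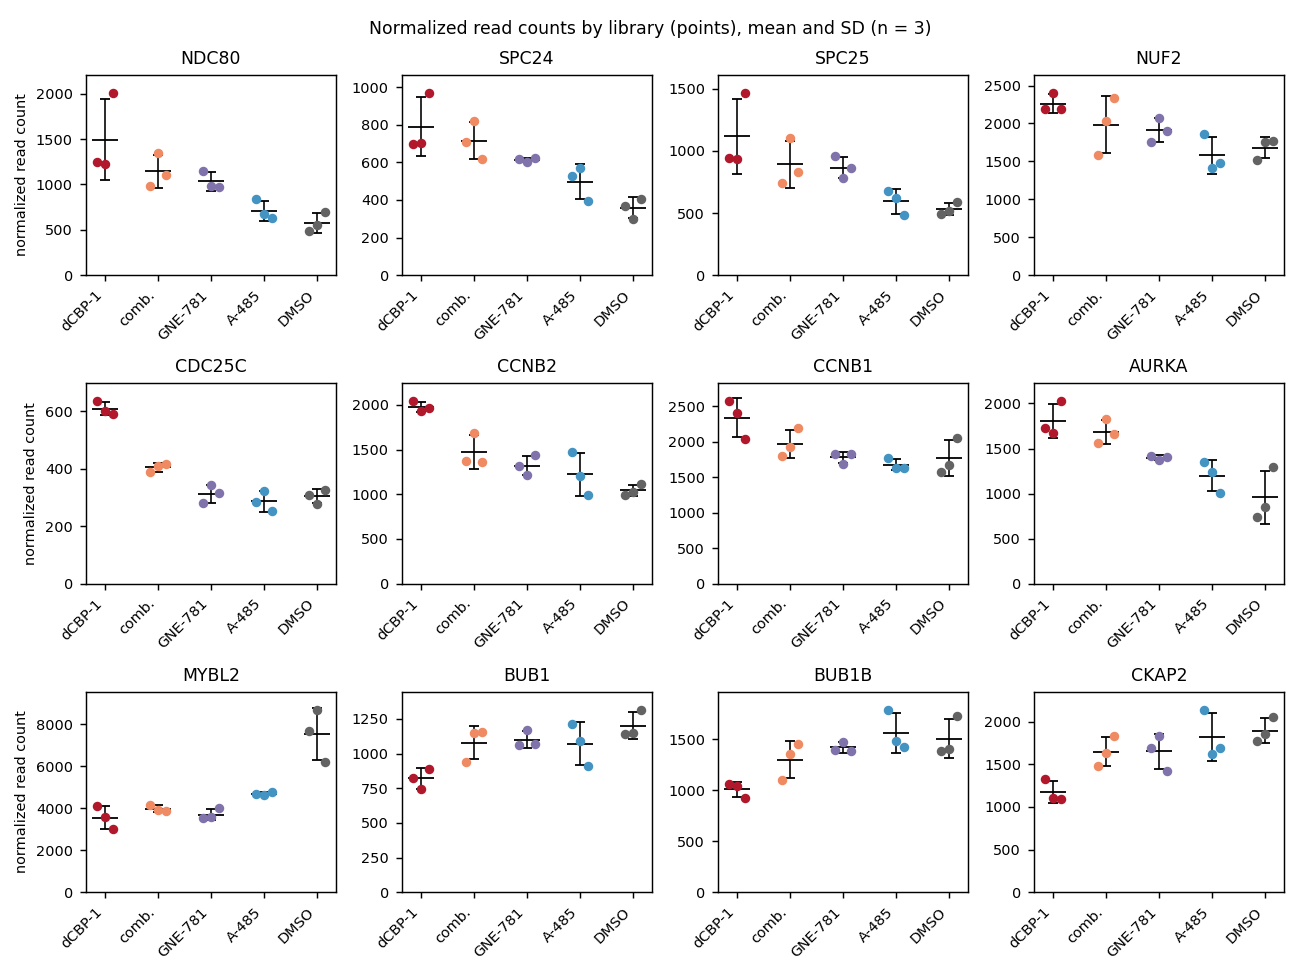
Normalized read counts (vertical axes, from 0) of 12 genes in each library (points), with mean and SD of the 3 libraries of each treatment; comb. is the combination. NDC80, SPC24 and SPC25 step down from dCBP-1 to DMSO, CDC25C stands apart with dCBP-1, MYBL2 is highest with DMSO, and BUB1, BUB1B and CKAP2 are lowest with dCBP-1.

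The mitotic cyclins and the enzymes that act on CDK1, the kinase that drives entry into mitosis, had 6 of 7 members higher. CDC25C, a phosphatase that activates CDK1, had 635, 603 and 590.5 normalized read counts with dCBP-1, 389, 411 and 416 with the combination, 279.9, 343 and 317 with GNE-781, 285, 324 and 252 with A-485, against 310.4, 277 and 325 with DMSO. Its dCBP-1 libraries exceeded every other library, the combination lay between, and the GNE-781 and A-485 libraries overlapped those of DMSO. The log2 fold change with dCBP-1 was 1.0 ± 0.15 (adjusted p = 3.9e-06, limma). Its exons overlap those of FAM53C on the opposite strand, which had more reads and also rose (log2 fold change 0.65). CCNB2, a B-type cyclin, had 2040.3, 1928 and 1968 normalized read counts with dCBP-1, 1371, 1691 and 1357 with the combination, 1311, 1218 and 1434 with GNE-781, 1471, 1208 and 993 with A-485, against 991, 1024 and 1113 with DMSO. Its dCBP-1 libraries again lay above all others, with a log2 fold change of 0.93 ± 0.14 (adjusted p = 3.7e-06, limma). CDK1 itself had 4239, 4291 and 4078 normalized read counts with dCBP-1, 3231, 3965 and 3847 with the combination, 3597, 3688 and 3808 with GNE-781, 3166, 2647 and 2409 with A-485, against 2257, 2167 and 3168 with DMSO. It rose by 0.75 ± 0.14 (adjusted p = 7.8e-05, limma). CCNB1, the main partner of CDK1 in mitosis, had 2573, 2412 and 2035 normalized read counts with dCBP-1, 1806, 1926 and 2195 with the combination, 1827, 1689 and 1832 with GNE-781, 1774, 1631 and 1631 with A-485, against 1572, 1678 and 2059.9 with DMSO. DMSO replicate 3 was above dCBP-1 replicate 3, so the groups overlapped, and the rise of 0.41 ± 0.13 (adjusted p = 0.015, limma) lost its call without dCBP-1 replicate 1 or 2 or DMSO replicate 1 or 2. CCNA2 (0.37 ± 0.14), the cyclin of S phase and G2, was lost with the same libraries, and CCNF (0.48 ± 0.14), part of a ubiquitin ligase, without DMSO replicate 1. The exons of CCNA2 overlap those of EXOSC9 on the opposite strand, which had more reads and also rose (log2 fold change 0.76). CDC25B was not called.

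Of the 5 mitotic kinases 4 rose. AURKA, which matures centrosomes and the spindle, had 1723, 1674 and 2024 normalized read counts with dCBP-1, 1558, 1827 and 1659.8 with the combination, 1422, 1368 and 1409 with GNE-781, 1345, 1235 and 1011 with A-485, against 737, 849 and 1294 with DMSO. The dCBP-1, combination and GNE-781 libraries lay above all DMSO libraries, and DMSO replicate 3 stood above the other DMSO libraries. Its log2 fold change was 0.95 ± 0.16 (adjusted p = 1.7e-05, limma). PLK1, a kinase needed from mitotic entry to exit, had 2278, 2006 and 1672 normalized read counts with dCBP-1, 1679, 1837 and 2141 with the combination, 1455, 1763 and 1611 with GNE-781, 1612, 1463 and 1499 with A-485, against 1273, 1183 and 1653 with DMSO. It rose by 0.54 ± 0.14 (adjusted p = 0.0034, limma). PBK, a kinase active in mitosis, rose by 0.89 ± 0.14 (adjusted p = 1.3e-05, limma), and NEK2, which separates centrosomes, by 0.62 ± 0.18, a call lost without dCBP-1 replicate 1 or DMSO replicate 1. PLK4, which starts centriole duplication, was not called.

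Of the 5 genes of chromosome condensation 3 rose. TOP2A, the topoisomerase that untangles sister chromatids, reached the highest read count of any member in a library and had 31924, 28453 and 29612 normalized read counts with dCBP-1, 26086, 27889.7 and 26952 with the combination, 23965, 23374 and 25091 with GNE-781, 24219, 22322 and 20258 with A-485, against 12836, 13433 and 23623 with DMSO. DMSO replicate 3 lay among the A-485 libraries and far above the other DMSO libraries, and the rise with dCBP-1 was 0.91 ± 0.17 (adjusted p = 0.00011, limma). NCAPG, a subunit of condensin, had 3479, 3199 and 4241 normalized read counts with dCBP-1, 2593, 3349 and 3141 with the combination, 2758, 3011 and 2571 with GNE-781, 2398, 2215 and 1948 with A-485, against 1992, 1685 and 2019.8 with DMSO. It rose by 0.93 ± 0.14 (adjusted p = 2.6e-06, limma), and the gene that overlaps its exons on the opposite strand, LCORL, fell (log2 fold change −0.62). SMC2, a core subunit of condensin, had 3419, 3481 and 4214 normalized read counts with dCBP-1, 2839, 3937 and 3939.9 with the combination, 3232, 3546 and 2936 with GNE-781, 2924, 2397 and 2519 with A-485, against 2196, 2144 and 2555 with DMSO. Its dCBP-1, combination and GNE-781 libraries lay above all DMSO libraries. It rose by 0.69 ± 0.14 (adjusted p = 0.00025, limma), while its partner SMC4 and the subunit NCAPH were not called.

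Among proteins of the spindle, NUSAP1, which bundles microtubules, had 5447, 5412 and 6383 normalized read counts with dCBP-1, 4262, 5246 and 4967 with the combination, 4189, 4427 and 4065 with GNE-781, 3923, 3197 and 3118 with A-485, against 3125, 2863 and 3637 with DMSO. All dCBP-1 libraries lay above all others, and the log2 fold change was 0.84 ± 0.13 (adjusted p = 7.4e-06, limma). ASPM, of the spindle poles, had 9560.0, 8961 and 9667 normalized read counts with dCBP-1, 7968, 9837 and 9333 with the combination, 8888, 9032 and 7739 with GNE-781, 8143, 6722 and 6362 with A-485, against 6356, 6131 and 6408 with DMSO. Its A-485 libraries overlapped those of DMSO, and the other treated libraries lay above them. ASPM rose by 0.58 ± 0.13, HMMR by 0.52 ± 0.15 and DLGAP5 by 0.46 ± 0.15, the last of these a call that ended without dCBP-1 replicate 3 or DMSO replicate 2. TPX2, which activates AURKA on the spindle, and CKAP5, a microtubule polymerase, were not called. CKAP2, which stabilises microtubules, moved the other way and had 1329, 1100.1 and 1099 normalized read counts with dCBP-1, 1486, 1629.7 and 1829 with the combination, 1694, 1838 and 1422 with GNE-781, 2141, 1623 and 1692 with A-485, against 1769, 1856 and 2061 with DMSO. The 3 dCBP-1 libraries were the lowest of all 15, and the log2 fold change was −0.69 ± 0.14 (adjusted p = 0.0002, limma).

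Kinesin motors were split, with 5 of 8 higher and 1 lower. KIF4A, a chromokinesin, rose by 0.61 ± 0.14, KIF20A, which acts in cytokinesis, by 0.60 ± 0.20, KIF18A, which dampens chromosome oscillation, by 0.56 ± 0.18, KIF2C, which depolymerises microtubules, by 0.54 ± 0.15 and KIF14 by 0.41 ± 0.13. The exons of KIF20A overlap those of BRD8, which had more reads and rose (log2 fold change 1.26). They also overlap those of CDC23, which had more reads than KIF20A and was not called (log2 fold change 0.35). The exons of KIF18A overlap those of METTL15, which rose (log2 fold change 1.48). All these neighbours lie on the opposite strand, so the values of KIF20A and KIF18A are uncertain. The position of the overlap along each gene was not tested. The exons of KIF4A overlap those of PDZD11 on the opposite strand, which had fewer reads than KIF4A and also rose (log2 fold change 0.57). The near copies KIF4B, PTTG2 and PTTG3P held at most 14.8, 17.9 and 7.19 normalized read counts in any library. KIF20A lost its call without DMSO replicate 1, KIF18A without dCBP-1 replicate 1, and KIF14 without dCBP-1 replicate 3 or DMSO replicate 2. KIF11, the motor that pushes the spindle poles apart, had 1211, 1022 and 989 normalized read counts with dCBP-1, 989, 1066 and 1382 with the combination, 1055, 1166 and 1022 with GNE-781, 1189, 1009 and 1153 with A-485, against 1286, 1458 and 1336 with DMSO. It fell by 0.34 ± 0.14 on the log2 scale (adjusted p = 0.048, limma), and the call ended in 5 of the 6 fits with a library left out, all but that without dCBP-1 replicate 1. KIF20B and KIF23 were not called. ECT2 (0.63 ± 0.15) and PRC1 (0.38 ± 0.13), which act in cytokinesis, rose, PRC1 losing its call without dCBP-1 replicate 1 or DMSO replicate 1 or 2, and ANLN was not called. Of the chromosomal passenger complex, which corrects faulty attachments, INCENP rose (0.46 ± 0.16), a call that ended without dCBP-1 replicate 1 or DMSO replicate 1 or 2. AURKB, CDCA8 and BIRC5 of that complex were not called, with BIRC5 at 0.05 ± 0.13 (95% interval −0.22 to 0.32).

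The spindle checkpoint, which delays anaphase until all chromosomes are attached, did not move in a single direction. TTK, its upstream kinase, rose by 0.67 ± 0.15 (adjusted p = 0.00094, limma). BUB1, a checkpoint kinase, had 825, 745 and 892 normalized read counts with dCBP-1, 939, 1148 and 1153 with the combination, 1065, 1172 and 1067 with GNE-781, 1216, 1093 and 907 with A-485, against 1138, 1151 and 1316 with DMSO. BUB1B, which encodes the checkpoint protein BUBR1, had 1059.7, 1048 and 926 normalized read counts with dCBP-1, 1098, 1360.4 and 1451 with the combination, 1399.6, 1480.0 and 1385 with GNE-781, 1791, 1483 and 1427 with A-485, against 1392, 1405 and 1727 with DMSO. For both, the 3 dCBP-1 libraries lay below the other 12, with log2 fold changes of −0.55 ± 0.14 (adjusted p = 0.0019, limma) for BUB1 and −0.57 ± 0.14 (adjusted p = 0.0013, limma) for BUB1B. MAD2L1 (−0.32 ± 0.14, 95% interval −0.61 to −0.02) and BUB3 (0.09 ± 0.13, 95% interval −0.18 to 0.36) were not called. Downstream, where the anaphase-promoting complex ends mitosis, PTTG1 (securin) had 3749, 3458 and 3259 normalized read counts with dCBP-1, 2982, 3004 and 3557 with the combination, 2273, 2799 and 2802 with GNE-781, 2854, 2384 and 2572 with A-485, against 1567, 1998 and 2473 with DMSO. Its dCBP-1 libraries lay above all DMSO libraries, and it rose by 0.82 ± 0.14 (adjusted p = 4.1e-05, limma). CDC20, the activator of that complex, had 1788, 1648 and 1419 normalized read counts with dCBP-1, 1373, 1511 and 1714 with the combination, 1150.0, 1222 and 1431 with GNE-781, 1343, 1056 and 1165 with A-485, against 1381, 1596 and 1568 with DMSO. The groups overlapped and CDC20 was not called (0.09 ± 0.14, 95% interval −0.19 to 0.37), nor were UBE2C (−0.21 ± 0.15), UBE2S and ESPL1.

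The 2 transcription factors of the set went opposite ways. MYBL2, which encodes B-MYB, had 4087, 3559.7 and 2989 normalized read counts with dCBP-1, 4166, 3916 and 3843 with the combination, 3518, 3562 and 4017 with GNE-781, 4683, 4629.6 and 4774 with A-485, against 7689.9, 8685 and 6214 with DMSO. Every treated library lay below every DMSO library, as for 6.38% of all genes tested, and MYBL2 was the only member of which this held. Its log2 fold change with dCBP-1 was −1.08 ± 0.13 (adjusted p = 1.7e-07, limma). FOXM1 had 762, 760.1 and 1201 normalized read counts with dCBP-1, 713, 1042 and 693 with the combination, 885, 606 and 785 with GNE-781, 663, 687 and 423 with A-485, against 533, 515 and 717 with DMSO. It rose by 0.61 ± 0.20 (adjusted p = 0.017, limma) with dCBP-1, where replicate 3 was the highest library, and the call ended without dCBP-1 replicate 3, DMSO replicate 1 or DMSO replicate 2. Its exons overlap those of ITFG2 on the opposite strand.

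With DMSO replicate 3 as the only control, fewer mitotic genes passed the test with dCBP-1, and the larger falls held. In this fit the lone DMSO library is taken to vary like the other groups. Of the 60 genes 13 rose and 4 fell, against 7.75% and 15.8% of all genes tested, and the median was 0.24, against −0.12 over all genes. The genes that rose were NDC80 (1.07), SPC24 (0.94), CDC25C (0.90), SPC25 (0.89), NCAPG (0.84), CCNB2 (0.83), SGO1, NUSAP1, CENPE, ASPM, SMC2, PTTG1 and PBK. Those that fell were MYBL2 (−0.82), CKAP2 (−0.81), BUB1B (−0.77) and BUB1 (−0.68), and each of these calls was also made against all DMSO libraries. All 3 dCBP-1 libraries lay above DMSO replicate 3 in 39 members and below it in 8, where 30% and 43.8% of all genes tested did so. SGO2 (0.50, limma adjusted p = 0.055), AURKA (0.48, adjusted p = 0.053), CDK1 (0.41, adjusted p = 0.084) and TOP2A (0.34, adjusted p = 0.17) were no longer called.

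The count differed under another scaling. With median-ratio scaling, an alternative added after seeing the data that put the median of all genes at −0.01, 27 members rose and 4 fell against DMSO replicate 3 alone, where 13.2% and 14.6% of all genes did. The median of the 60 was then 0.36, and SGO2, AURKA, CDK1 and TOP2A were called, while PLK1, CCNB1 and FOXM1 were not. With only DMSO replicate 1 or only DMSO replicate 2 as control, also added after seeing the data, 31 members rose under each, where 19.3% and 17.7% of all genes tested rose, and 2 and 4 fell, where 13% and 14.2% did. DMSO replicate 3 was the highest DMSO library for 48 of 60 members (80%), against 54.8% of all genes tested. Relative to the median of all genes in the same library, the median of the 60 lay at 0.18, 0.18 and 0.21 in dCBP-1 libraries and at −0.22, −0.24 and −0.19 in DMSO libraries, so that on this scale DMSO replicate 3 was close to the other DMSO libraries.

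**Figure D3:**
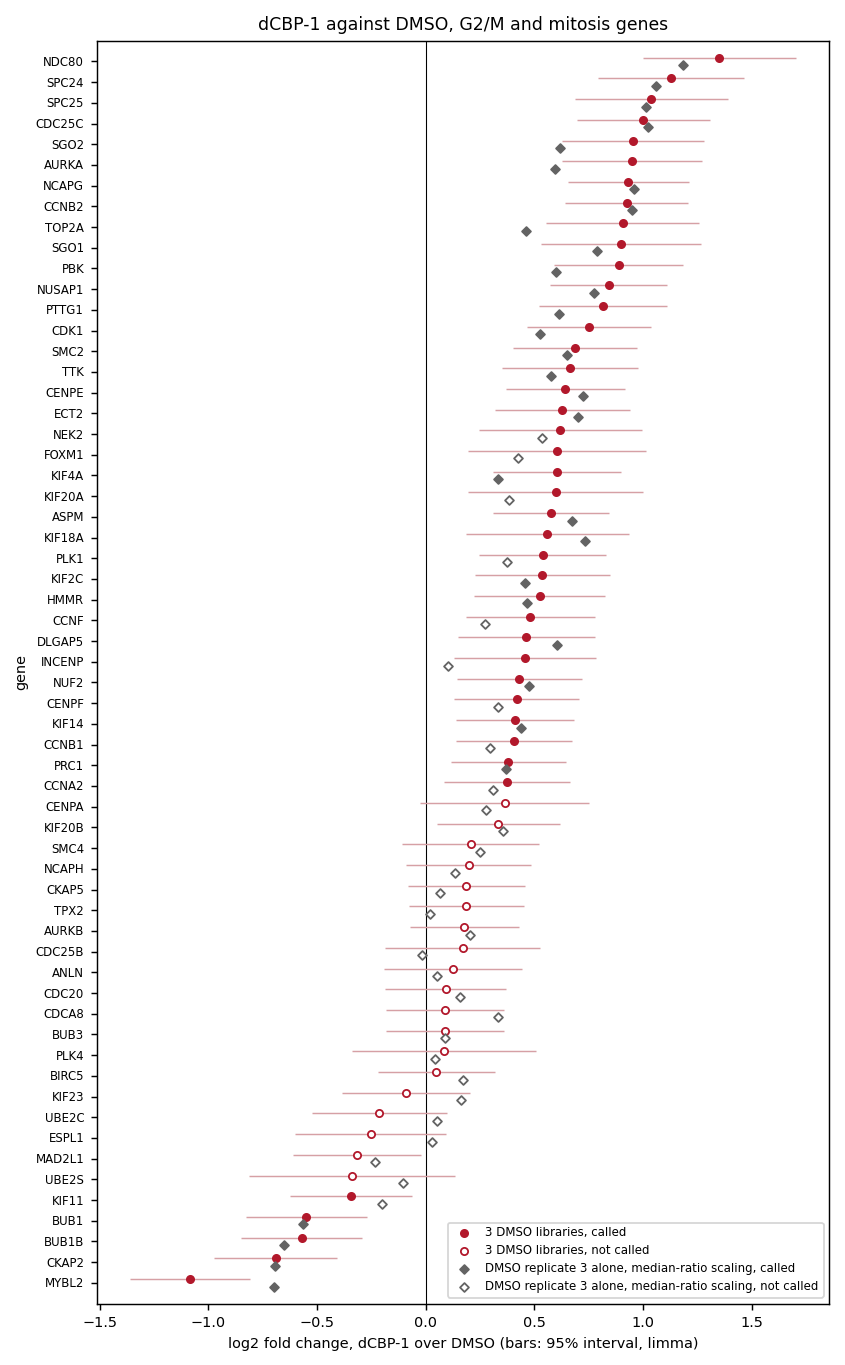
Log2 fold change of each of the 60 genes (rows) with dCBP-1 over all 3 DMSO libraries (circles, bars are 95% intervals from limma) and over DMSO replicate 3 alone with median-ratio scaling (diamonds); filled symbols were called. The order from NDC80 at the top to MYBL2 at the bottom is by the circles, and 27 diamonds above 0 and 4 below it are filled.

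**Figure D4:**
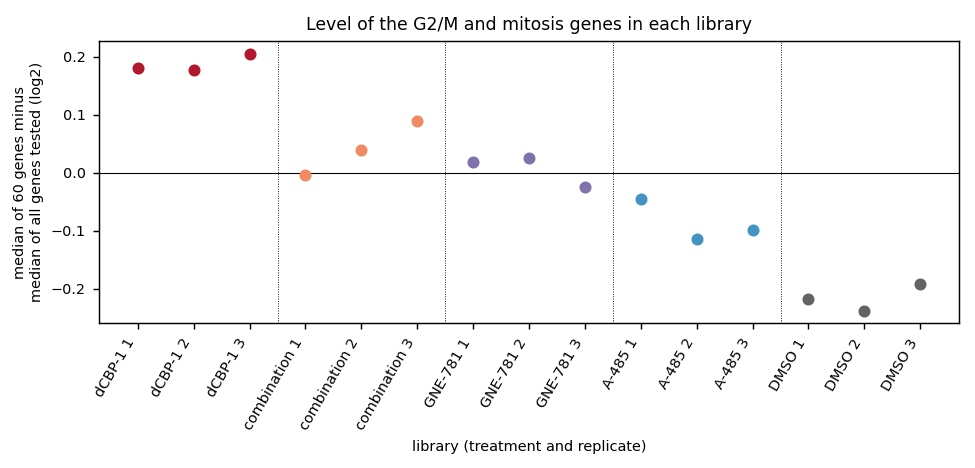
Median of the 60 genes minus the median of all genes tested (vertical axis, log2, each gene first set against its mean over the 15 libraries) in each library (horizontal axis, by treatment and replicate). The 3 dCBP-1 libraries are the highest, at 0.18 to 0.21, and the 3 DMSO libraries the lowest, at −0.24 to −0.19.

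The combination, which blocks both domains of CBP and p300, had a smaller count of mitotic genes past the threshold, with SPC24 and NDC80 at the top. Of the 60 genes 24 rose and 2 fell, against 11.4% and 9.6% of all genes tested, with a median of 0.32 against 0.09. SPC24 (1.0 ± 0.16), NDC80 (1.0 ± 0.17), AURKA (0.85 ± 0.16), TOP2A (0.76 ± 0.17) and SPC25 (0.72 ± 0.17) had the largest rises. NUF2, the other subunit of the NDC80 complex, was not called (0.23 ± 0.14). MYBL2 fell by 0.91 ± 0.13 on the log2 scale and UBE2C, the ubiquitin-conjugating enzyme of the anaphase-promoting complex, by 0.44 ± 0.15. All combination libraries lay above all DMSO libraries in 23 genes and below in 2, where 15.6% and 14.8% of all genes did. Against DMSO replicate 3 alone these numbers were 23 and 8, where 24.6% and 37.9% of all genes did. Of the 24 rises 14 kept their call with each of the 6 combination and DMSO libraries left out in turn, while UBE2C lost its call without combination replicate 1 or 2 or DMSO replicate 1 or 2. The count of 26 was 17 without combination replicate 2 and 2 with DMSO replicate 3 alone, where SPC24 rose (0.80) and MYBL2 fell (−0.65), against 1.76% and 4.84% of all genes tested. It was 12, 11 higher and 1 lower, with DMSO replicate 3 alone and median-ratio scaling, where 3.81% of all genes rose and 5.17% fell.

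GNE-781 alone had fewer members called, with NDC80, SPC24 and SPC25 again among them. Of the 60 genes 15 rose and 2 fell, against 7.82% and 8.81% of all genes tested, with a median of 0.22 against 0.07. NDC80 (0.86 ± 0.17), SPC24 (0.78 ± 0.16) and SPC25 (0.70 ± 0.17) had the largest rises, and PBK had 0.65 ± 0.14. NUF2 was not called (0.19 ± 0.14). MYBL2 fell by 1.01 ± 0.13 on the log2 scale and UBE2C by 0.54 ± 0.15. Of the 15 rises 5 kept their call with each of the 6 libraries left out in turn, and UBE2C lost its call without GNE-781 replicate 1 or 2 or DMSO replicate 2. The count of 17 was 9 without GNE-781 replicate 1 or 2 and 7 without DMSO replicate 2. All GNE-781 libraries lay above all DMSO libraries in 21 members and below in 4, where 15.2% and 16.4% of all genes did. Against DMSO replicate 3 alone these numbers were 22 and 12, where 25.1% and 42.5% of all genes did. With DMSO replicate 3 alone the count was 1, a fall of MYBL2 (−0.75), against 4.5% of all genes lower and 0.987% higher. With median-ratio scaling added it was 5, of which ASPM, DLGAP5, NCAPG and SPC24 rose and MYBL2 fell, where 2.32% of all genes rose and 3.85% fell.

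With A-485 alone, 1 member rose and 1 fell, against 0.348% and 1.79% of all genes tested. PBK had 2062, 1851 and 1774 normalized read counts with dCBP-1, 1624, 1665 and 1581 with the combination, 1627, 1482 and 1703 with GNE-781, 1719, 1678 and 1382 with A-485, against 891, 884 and 1356 with DMSO. Its 12 treated libraries lay above all 3 DMSO libraries, which held for 1.53% of all genes tested and for no other member, and it rose by 0.63 ± 0.14 (adjusted p = 0.015, limma). MYBL2 fell by 0.67 ± 0.13 on the log2 scale (adjusted p = 0.0065, limma). NDC80 had 0.31 ± 0.17, SPC24 0.46 ± 0.16 and SPC25 0.15 ± 0.17, none of them called, and the median of the 60 was 0.09, against −0.03 over all genes. All A-485 libraries lay above all DMSO libraries in 2 members and below in 5, where 3.6% and 11.5% of all genes did. Against DMSO replicate 3 alone these numbers were 2 and 18, where 10.2% and 44.4% of all genes did. PBK lost its call without A-485 replicate 1 or 2 or DMSO replicate 1 or 2, and MYBL2 without DMSO replicate 2. The count of members called was 8 without DMSO replicate 3 and 0 with DMSO replicate 3 alone, where 0.0373% of all genes rose, 0.0373% fell and 2 members had an unadjusted p below 0.05 in limma. With median-ratio scaling added it was 0 as well, where 0.0124% of all genes rose and 0.00621% fell, and 6 members had an unadjusted p below 0.05. The comparisons with DMSO share the DMSO libraries, so their members' values are not independent of each other.

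**Figure D5:**
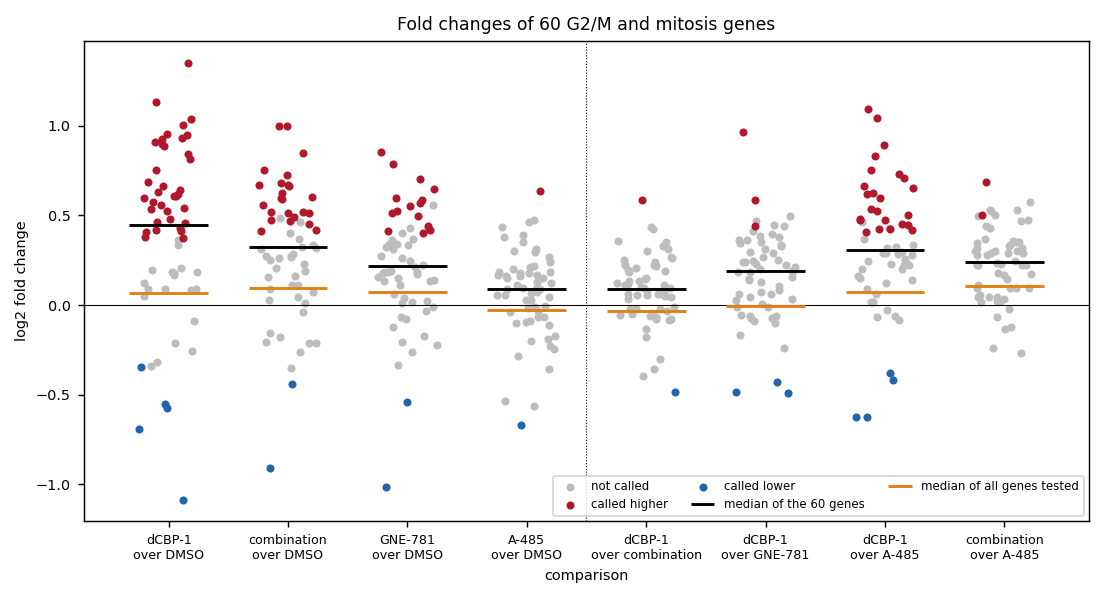
Log2 fold changes of the 60 genes (points) in 8 comparisons (horizontal axis; left of the dotted line against DMSO, right of it between treatments), with red for called higher, blue for called lower and grey for not called; black bars are medians of the 60 and orange bars medians of all genes tested. The median of the 60 is 0.44, 0.32, 0.22 and 0.09 in the comparisons with DMSO from left to right.

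Between treatments no DMSO library enters the fold change. dCBP-1 exceeded A-485 in 24 of the 60 genes and lay below it in 4, against 12.9% and 11.6% of all genes tested, with a median of 0.31 against 0.08. CDC25C (1.09 ± 0.15), NDC80 (1.04 ± 0.17), SPC25 (0.89 ± 0.17) and SGO1 (0.83 ± 0.18) had the largest differences, and NUF2 (0.52 ± 0.14), CCNB1 (0.47 ± 0.13), FOXM1 (0.62 ± 0.20) and CDC20 (0.45 ± 0.14) were called too. BUB1B (−0.63 ± 0.14), CKAP2 (−0.62 ± 0.14), MYBL2 (−0.42 ± 0.13) and BUB1 (−0.38 ± 0.14) were lower. Of the 24 rises 12, and of the 4 falls 2, kept their call with each of the 6 libraries left out in turn. CCNB1 lost it without dCBP-1 replicate 1, FOXM1 without dCBP-1 replicate 3 or A-485 replicate 3, CDC20 without dCBP-1 replicate 1 or 2 or A-485 replicate 2, BUB1 without dCBP-1 replicate 1 or 2 or A-485 replicate 1 or 2, and MYBL2 without dCBP-1 replicate 2 or 3 or A-485 replicate 2 or 3. The count of 28 was 18 without dCBP-1 replicate 1, A-485 replicate 2 or A-485 replicate 3.

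Against GNE-781, whose ligand type dCBP-1 shares, dCBP-1 had 3 members higher and 3 lower, against 2.19% and 7.13% of all genes tested. CDC25C (0.96 ± 0.15), CCNB2 (0.59 ± 0.14) and NUSAP1 (0.44 ± 0.13) were higher, and BUB1B (−0.49 ± 0.14), CKAP2 (−0.49 ± 0.14) and BUB1 (−0.43 ± 0.14) were lower. CDC25C and CCNB2 kept their call with each of the 6 libraries left out, while NUSAP1 lost it in all 6 fits, BUB1 in all but that without dCBP-1 replicate 3, CKAP2 without dCBP-1 replicate 2 or 3 or GNE-781 replicate 1 or 2, and BUB1B without dCBP-1 replicate 3 or GNE-781 replicate 1 or 2. The count of 6 was 2 without GNE-781 replicate 1 or 2 and 12 without DMSO replicate 3, which enters the shared spread, and 16 to 20 under TMM, median-ratio and quantile scaling, with more of them higher. The shares of all genes called in those fits are not given here.

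Against the combination, 1 member was higher with dCBP-1 and 1 lower, against 0.553% and 5.61% of all genes tested. CDC25C was higher (0.59 ± 0.15 (adjusted p = 0.012, limma)) and CKAP2 lower (−0.49 ± 0.14 (adjusted p = 0.027, limma)). For NDC80 the difference was 0.36 ± 0.17 (95% interval 0.00 to 0.71) and for CCNB2 0.43 ± 0.14 (95% interval 0.15 to 0.71), and neither was called. CDC25C lost its call without dCBP-1 replicate 1, and CKAP2 without dCBP-1 replicate 2 or 3 or combination replicate 2 or 3. The count of 2 was 4 without combination replicate 1 and 8 to 11 under TMM, median-ratio and quantile scaling, again without the shares of all genes called. In 9 genes (CCNB2, CDC25C, CDK1, KIF2C, NUSAP1, PBK, SGO2, TOP2A and TTK) all dCBP-1 libraries lay above all 9 inhibitor libraries, and in 3 (BUB1, BUB1B and CKAP2) below them, where 6.23% and 8.85% of all genes tested did so.

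Few members passed the test between the inhibitor treatments. The combination exceeded A-485 in NDC80 (0.69 ± 0.17 (adjusted p = 0.023, limma)) and NUSAP1 (0.50 ± 0.13 (adjusted p = 0.03, limma)), 2 members higher and 0 lower, against 1.63% and 1.57% of all genes tested. That count ran from 0 to 9 with a library left out: it was 0 without combination replicate 2, A-485 replicate 2 or A-485 replicate 3, 1 without combination replicate 3, 4 without DMSO replicate 1, 5 without combination replicate 1 or dCBP-1 replicate 3, 6 without A-485 replicate 1 and 9 without DMSO replicate 3. The combination against GNE-781 called 0 members and 0% of all genes tested with limma, with 1 member at an unadjusted p below 0.05, and edgeR and DESeq2 called 0 members too. NDC80 there had 0.14 ± 0.17 (95% interval −0.21 to 0.49). GNE-781 against A-485 also called 0 members with limma, where 1% of all genes tested were called, 9 members had an unadjusted p below 0.05, and edgeR and DESeq2 called 1 each. Neither result shows that the treatments act alike on these genes.

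The effect of the combination was set against the sum of its parts on the log2 scale. With limma 0 members departed from additivity, where 0.447% of all genes tested did, 6 members had an unadjusted p below 0.05, edgeR called 0 and DESeq2 1. With DMSO replicate 3 alone limma also called 0 members, where 0.0124% of all genes tested were called and 6 members had an unadjusted p below 0.05. With all DMSO libraries the values ran from −0.61 for PBK to 0.77 for MYBL2. These are the members called with A-485 alone, whose difference from DMSO enters these values with its sign reversed, so the match is partly built in. By group mean, 31 of the 60 genes (51.7%) ran from dCBP-1 down through the combination and GNE-781 to A-485, against 17.1% of all genes tested. dCBP-1 was the highest of the 4 treatments for 39 members (65%), against 34.6% of all genes, and A-485 the lowest for 45 (75%), against 42.6%.

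Other lists of genes are read against the same shares of all genes tested with dCBP-1, 19.3% higher and 18.5% lower over all DMSO libraries and 7.75% higher and 15.8% lower over DMSO replicate 3 alone. Of 104 genes of mitosis outside the set 42 rose (40.4%) and 14 fell (13.5%), with a median of 0.27. DEPDC1, a mitotic regulator, rose (1.23 ± 0.15), as did SKA1, of a complex that couples kinetochores to microtubules (0.88 ± 0.14). PLK2, a kinase of the Polo family, fell (−1.57 ± 0.23), as did CDC16, a subunit of the anaphase-promoting complex (−0.88 ± 0.13). With DMSO replicate 3 alone 9 of the 104 rose (8.65%) and 13 fell (12.5%), close to the shares of all genes, with a median of 0.09. Of 44 DNA replication genes 14 rose (31.8%) and 3 fell (6.82%), with a median of 0.23, among them RRM1 (0.99 ± 0.14) and RRM2 (0.70 ± 0.13), the subunits of ribonucleotide reductase, RFC4 of the clamp loader (0.98 ± 0.17) and the chromatin assembly factor CHAF1B (0.81 ± 0.15), and 5 rose (11.4%) and 3 fell (6.82%) with DMSO replicate 3 alone.

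Of 15 CDK inhibitors and brakes on mitotic entry 2 rose (13.3%) and 9 fell (60%) with dCBP-1, with a median of −0.48. The 2 that rose, named after their values were seen, were the CDK inhibitors CDKN2D (0.99 ± 0.16) and CDKN1C (0.65 ± 0.21). GADD45B, a stress-induced growth arrest gene (−2.43 ± 0.13), BTG2 (−1.66 ± 0.15) and BTG1 (−1.19 ± 0.14), antiproliferative genes, and ZFP36L1, which destabilises transcripts (−1.58 ± 0.15), had the smallest p. With DMSO replicate 3 alone 1 rose (6.67%) and 7 fell (46.7%). Of 20 genes of the MuvB core, the pocket proteins and the E2F family 1 rose (5%) and 4 fell (20%), the falls at about the share of all genes, with a median of 0.02: TFDP2, a partner of E2F factors, rose (1.16 ± 0.29), and E2F2 (−1.01 ± 0.14), E2F5 (−1.69 ± 0.44) and E2F3 (−0.44 ± 0.13) fell. Of these 20 genes 1 rose (5%) and 3 fell (15%) with DMSO replicate 3 alone. Of the 9 plasma cell markers 8 fell with dCBP-1, and 8 fell with DMSO replicate 3 alone. Of 15 mitochondrially encoded genes 0 rose and 6 fell with dCBP-1, with a median of −0.47, and 5 fell with DMSO replicate 3 alone. The part of the mitochondrial share in the members' values was not tested, beyond the fits without DMSO replicates 1 and 2.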

How the data were processed

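Per the labels, RNA of MM.1S cells was purified with ERCC spike-ins added, and QuantSeq 3′ mRNA libraries were made and read against hg19, the build in the submitters' processing notes. Aligner, counting tool, strand and normalization are not given in the sources used here. The authors deposited a gene-level signal, normalized read counts. All values were whole multiples of 1 step per library (100% within 0.01 of a whole read), so reads were recovered by multiplying back, which leaves the authors' scaling as the main one. Relative to it, median-ratio factors ran from 0.874 to 1.09. Libraries were grouped by title. In 2 combination libraries the treatment field spells GNE-781 with another last digit, taken as a slip. The last table row had no value. The table held no ERCC rows, so the spike-ins could not be used here. Of the identifiers, 45779 (96.5%) had a symbol, from GENCODE.

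The test covered the 16104 genes that reached a value of 5 in 3 or more libraries, and used limma-trend (limma 3.58.1, R 4.3.3) on log2(value + 1) in 1 model of 5 group means, two-sided, with Benjamini-Hochberg adjustment over all genes tested. The script was tested on simulated data in which no library was set apart from its group. That test therefore does not bear on the differences among DMSO libraries. Members, lists and the rule for named genes were chosen with earlier results of these data known. The rule gives values in every library for the 10 largest called rises and the called falls with dCBP-1, for up to 12 members by smallest p called with DMSO replicate 3 as the only control, and for FOXM1, MYBL2, CDK1, CCNB1, PLK1, AURKA and CDC20; PBK, ASPM, SMC2, PTTG1, CDKN2D and CDKN1C were added after their values were seen. Of each other list up to 4 genes with the smallest p are named. Other settings tried were 3 scalings (TMM, median-ratio, quantile), pseudocounts 0.25 and 5, a filter at 20 or none, a fit of the compared groups alone, a replicate block, edgeR 4.0.16 and DESeq2 1.42.0 on recovered reads, each library left out, and DMSO replicate 3 as the only control; the last with median-ratio scaling, and DMSO replicates 1 and 2 as only controls, were added after seeing the data.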

Additional observations from a re-analysis of the deposited data

How the results depend on the processing

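Counts of members called with dCBP-1 over DMSO ran from 36 to 48 under scaling, pseudocount, filter, edgeR and DESeq2 alternatives, from 30 to 42 with a library left out, and were 17 with DMSO replicate 3 alone (DMSO replicates 1 and 2 left out together). Libraries of the same replicate number did not deviate from their group means together more than others did. Correlations of deviations ran from −0.53 to 0.40 over 30 pairs of the same number (median −0.09). They ran from −0.62 to 0.62 over 60 pairs of different numbers (median 0.07), and 4 of 15 libraries correlated best with their own number. A pairing or batch that the numbers do not follow was not tested. With the replicate number as a block the count was 39 for dCBP-1, 23 for the combination, 14 for GNE-781 and 2 for A-485 over DMSO, 25 for dCBP-1 over A-485, 4 over GNE-781 and 1 over the combination, 1 for the combination over A-485, and 0 elsewhere. For the combination over DMSO the count of 26 was 2 with DMSO replicate 3 alone and 12 with median-ratio scaling added, and 17 to 33 with a library left out. For GNE-781 over DMSO the count of 17 was 27 with TMM, 28 with quantile normalization, 26 with edgeR, 11 with no filter, 1 with DMSO replicate 3 alone, 5 with median-ratio scaling added, and 7 to 23 with a library left out. For A-485 over DMSO the count of 2 was 5 with TMM, median-ratio scaling or edgeR, 4 with quantile normalization, 8 with DESeq2, 7 with DMSO replicate 1 as the only control, 0 with only the groups compared or with DMSO replicate 3 alone under either scaling, and 0 to 8 with a library left out. For dCBP-1 over the combination the count of 2 was 9 with TMM, 8 with median-ratio scaling or edgeR, 11 with quantile normalization, 10 with DESeq2, 1 with no filter, and 1 to 4 with a library left out. For dCBP-1 over GNE-781 the count of 6 was 16 with TMM, median-ratio scaling or edgeR, 20 with quantile normalization, 17 with only the groups compared, 18 with DESeq2, and 2 to 12 with a library left out. For dCBP-1 over A-485 the count of 28 was 18 to 32 with a library left out. For the combination over A-485 the count of 2 was 5 with TMM or median-ratio scaling, 9 with quantile normalization, 4 with a filter at 20 or edgeR, 10 with DESeq2, 0 with no filter, 1 with a fit of the compared groups alone, and 0 to 9 with a library left out. For GNE-781 over A-485 the count of 0 was 1 with TMM, median-ratio scaling, quantile normalization, edgeR or DESeq2, and 3 with only the groups compared. For departure from additivity it was 1 with DESeq2 and 0 to 2 with a library left out. The cause of these differences was not tested. These counts are printed without the share of all genes called in each fit, so they do not compare members with all genes. With DMSO replicate 3 alone, INCENP (−0.018) and BUB3 (−0.031) changed sign, as did BUB3 with DMSO replicate 2 left out (range over libraries left out −0.014 to 0.15), BIRC5 with DMSO replicate 1 as the only control (−0.012) and UBE2C with DMSO replicate 3 alone and median-ratio scaling (0.053). No other fold change of a called or printed member changed sign under an alternative.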
